A study of Mus musculus with 28 samples.

Results

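The genes described here are the nuclear genes for the subunits of the oxidative phosphorylation complexes of mitochondria, together with the assembly factors that carry the same name stems. They were chosen by name alone, as protein-coding genes whose symbol starts with Nduf, Uqc, Cox4, Cox5, Cox6, Cox7, Cox8 or Atp5, or is Sdha, Sdhb, Sdhc, Sdhd or Cyc1, and that reached 10 CPM in no fewer than 3 embryos of 1 stage. CPM is reads per 1000000 reads of the scaled library. Percent of reads, wherever given for a sum over genes, is likewise percent of the scaled library. The annotation named 98 such genes, 91 of them were in the tables, and 90 passed the level filter out of 10966 genes that passed it in the series. By name, 37 of the 90 belong to complex I, 4 to complex II, 9 to complex III, 12 to complex IV and 17 to complex V, and 11 are assembly factors. All 90 were tested in blastocysts and 89 in morulae.

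The complexes sit in the inner mitochondrial membrane. Complex I takes electrons from NADH and complex II from succinate, complexes III and IV pass them on to oxygen, and complex V, the ATP synthase, makes ATP from the proton gradient that complexes I, III and IV build. Complex II is wholly nuclear encoded, while the others also hold subunits read from mitochondrial DNA, so both genomes must supply parts. The mouse embryo lives largely on pyruvate in its first divisions and raises its uptake of oxygen and glucose as the blastocyst forms.

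RNA was measured in 27 single whole embryos of the CD1 strain, 14 blastocysts and 13 morulae, in a series about CTCF, the zinc finger protein of insulators and loop anchors. Blastocysts were labelled MZ_KO (n = 3), M_KO (n = 4), het (n = 4) and WT_flfl (n = 3), and morulae MZKO (n = 6), del (n = 4) and het (n = 3). M usually denotes a gene product missing from the egg, and MZ one that the embryo cannot make either, while the alleles, the driver of any recombinase, the meaning of del and the hours of collection are not given in the labels. Ctcf RNA stood at 3.62 ± 0.660 CPM in MZ_KO, 69.5 ± 15.6 CPM in M_KO, 67.5 ± 9.73 CPM in het and 95.1 ± 6.02 CPM in WT_flfl blastocysts (SD), and at 4.33 ± 3.60 CPM in MZKO, 2.30 ± 2.68 CPM in del and 38.6 ± 14.6 CPM in het morulae (SD). All these blastocysts were sequenced in batch 1 and all these morulae in batch 2, which leaves stage and batch confounded: they cannot be told apart. MZ_KO and M_KO carry another title prefix than het and WT_flfl, as do MZKO morulae and the del and het morulae, and what a prefix stands for is not given. Read totals were 7377302 to 27883060 in blastocysts and 12136606 to 20414013 in morulae, apart from morula del 6 with 1635553. Haemoglobin and other blood genes took 3.45% of the reads of WT_flfl 1, 3.15% of het 6 and 1.55% of morula het 1. Which embryos are littermates is not given, so p-values measure only the spread between these embryos.

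MZ_KO blastocysts lost RNA of a small group of these genes, led by Ndufb7, Ndufb10 and Ndufab1 of complex I, the assembly factor Ndufaf3 and the ATP synthase gene Atp5g2, while most members did not pass the test. Against WT_flfl, 10 of the 90 members fell and 2 rose, beside 8.36% of all 9585 genes tested that fell and 4.84% that rose (limma, adjusted p under 0.05). The members' median log2 fold change was −0.058, beside −0.053 over all genes. Against het, 11 members fell and 7 rose, beside 10.8% and 7.02% of all genes, with a median of 0.122 beside −0.063. Against M_KO, 13 members fell and 0 rose, beside 8.09% and 3.74% of all genes, with a median of −0.063 beside −0.032. The share of members that fell lay near that of all genes against WT_flfl and against het and was larger against M_KO, a difference that was not tested. These comparisons share the MZ_KO embryos and are not independent, and the one with M_KO is the only one within a single title prefix. Over them 9 members fell in all 3, 13 in at least 1, 7 rose in at least 1, and 70 were called in none. Such counts were not made over all genes, so these have no share to be set beside and are a description only. The count against WT_flfl was 7 without MZ_KO 2 or without WT_flfl 7. Against het it was 10 without MZ_KO 2 and 9 without het 6, and against M_KO it was 8 without M_KO 1 or without M_KO 4. In whole embryos, fewer cells of a type and less RNA per cell cannot be told apart.

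**Figure D1:**
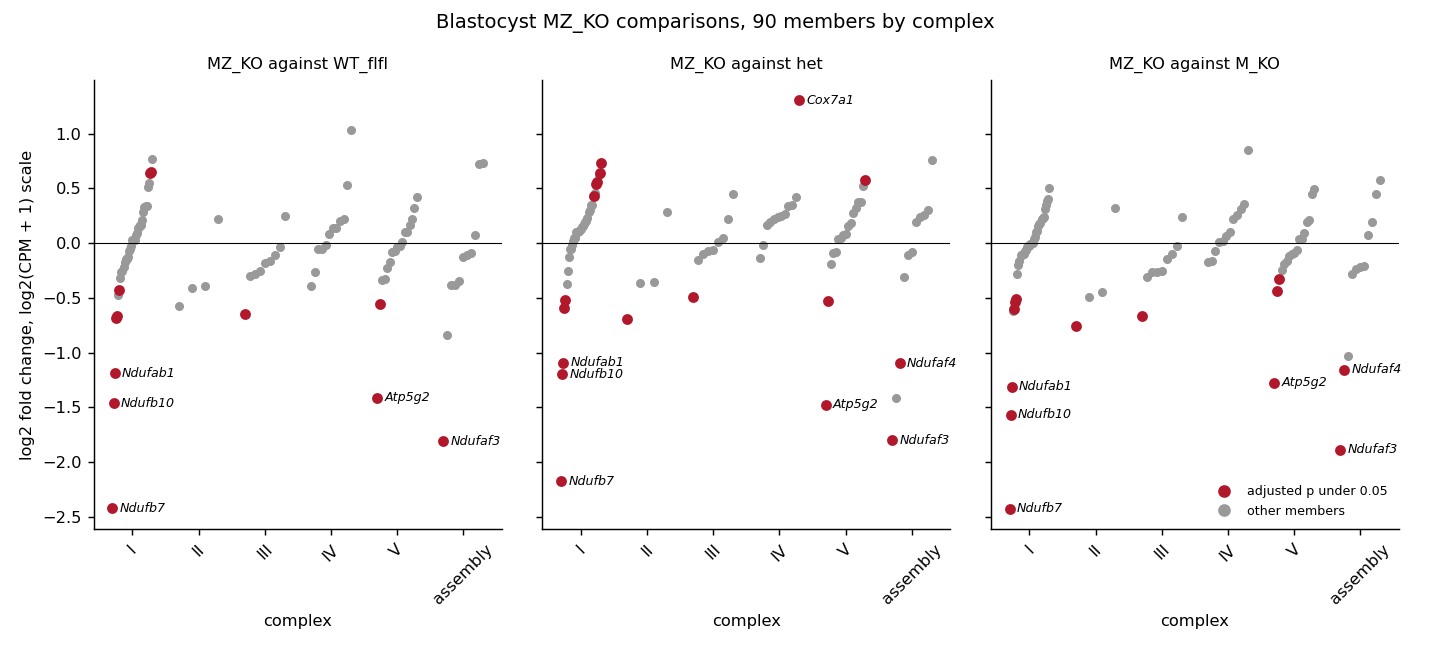
Log2 fold change of each of the 90 members (vertical axis, log2(CPM + 1) scale) in the 3 comparisons of MZ_KO blastocysts, grouped by complex along the horizontal axis and sorted within it. Red points passed an adjusted p of 0.05 and those past 1 in size are named. Most members lie between −0.5 and 0.5, and Ndufb7, Ndufb10, Ndufab1, Ndufaf3 and Atp5g2 lie below −1 in each panel.

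Ndufb7 showed the deepest fall of the members in all 3 comparisons. It encodes a subunit of the membrane arm of complex I that faces the intermembrane space and belongs to the proteins with twin cysteine motifs, which are trapped there by oxidative folding. Ndufb7 occupies bases 83566671 to 83571626 of chromosome 8, plus strand (GRCm38). Its level was 24.5, 18.2 and 20.5 CPM in MZ_KO 2, 6 and 7. M_KO blastocysts had 107, 140, 131 and 95.5 CPM, het blastocysts 80.6, 106, 97.5 and 111 CPM, and WT_flfl blastocysts 119, 114 and 116 CPM. Every MZ_KO embryo lay far below every other blastocyst. M_KO overlapped with het and with WT_flfl, while every het embryo lay below every WT_flfl embryo, a difference that did not pass the test. The log2 fold change of Ndufb7 was −2.42 against WT_flfl (SE 0.20, adjusted p = 1.37e-06), −2.18 against het (SE 0.19, adjusted p = 1.67e-06) and −2.43 against M_KO (SE 0.19, adjusted p = 5.54e-07), so that 18.1% of the WT_flfl mean was left.

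Ndufb10, another subunit of the membrane arm with cysteine motifs of this kind, lies on chromosome 17 from 24722060 to 24724478 on the minus strand. Its level was 61.6, 36.4 and 39.9 CPM in MZ_KO, against 140, 155, 137 and 110 CPM in M_KO, 92.7, 106, 109 and 110 CPM in het and 127, 106 and 145 CPM in WT_flfl. The highest MZ_KO embryo, MZ_KO 2, was still below the lowest of the others. Ndufb10 changed by −1.46 against WT_flfl (SE 0.21, adjusted p = 0.000281), by −1.20 against het (SE 0.20, adjusted p = 0.000717) and by −1.57 against M_KO (SE 0.20, adjusted p = 8.47e-05) on the log2 scale.

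Ndufab1 encodes the acyl carrier protein of mitochondria, which is both a subunit of complex I and the carrier for mitochondrial fatty acid synthesis, and lies on chromosome 7 from 122085403 to 122101886 on the minus strand. It stood at 76.4, 54.5 and 60.0 CPM in MZ_KO, against 165, 186, 174 and 116 CPM in M_KO, 122, 149, 134 and 138 CPM in het and 137, 145 and 153 CPM in WT_flfl. The MZ_KO embryos did not overlap with any other blastocyst. Ndufab1 changed by −1.19 against WT_flfl (SE 0.19, adjusted p = 0.000755), by −1.09 against het (SE 0.18, adjusted p = 0.000709) and by −1.31 against M_KO (SE 0.18, adjusted p = 0.000166).

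The assembly factor Ndufaf3, which helps to build the arm of complex I that reduces ubiquinone, was a weakly expressed gene that fell further still. It lies on chromosome 9 from 108565537 to 108567434 on the minus strand and overlaps Impdh2 in the annotation. Ndufaf3 had 5.58, 5.10 and 9.07 CPM in MZ_KO, against 36.1, 28.3, 25.2 and 18.8 CPM in M_KO, 21.3, 22.6, 24.9 and 31.1 CPM in het and 25.9, 21.5 and 27.8 CPM in WT_flfl. It was at 26.3% of the WT_flfl mean, with log2 fold changes of −1.81 against WT_flfl (SE 0.33, adjusted p = 0.00202), −1.80 against het (SE 0.31, adjusted p = 0.00104) and −1.89 against M_KO (SE 0.31, adjusted p = 0.000878). Impdh2 itself was at 200.4 CPM in MZ_KO and 219 CPM in WT_flfl (adjusted p = 0.717). Because the kit does not mark strand, reads in the shared stretch cannot be assigned to either gene with certainty.

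Atp5g2 is 1 of 3 genes for the same mature protein, the c subunit that forms the rotor ring of the ATP synthase, and lies on chromosome 15 from 102662864 to 102672352 on the minus strand. It stood at 14.8, 12.9 and 18.6 CPM in MZ_KO, against 46.4, 39.1, 40.5 and 29.7 CPM in M_KO, 36.4, 56.9, 44.0 and 42.2 CPM in het and 38.1, 40.4 and 49.2 CPM in WT_flfl. The groups did not overlap, and Atp5g2 changed by −1.41 against WT_flfl (SE 0.26, adjusted p = 0.00217), −1.48 against het (SE 0.24, adjusted p = 0.000775) and −1.28 against M_KO (SE 0.24, adjusted p = 0.00299). It was the minor gene of the 3. Atp5g1 averaged 688 ± 101 CPM in MZ_KO and 548.5 ± 38.9 CPM in WT_flfl (SD, adjusted p = 0.149), and Atp5g3 averaged 486 ± 56.7 CPM in MZ_KO and 571 ± 71.0 CPM in WT_flfl (SD, adjusted p = 0.369). Together the 3 genes gave 1189 ± 151 CPM in MZ_KO, 1284 ± 143 CPM in M_KO, 1111 ± 130 CPM in het and 1162 ± 72.6 CPM in WT_flfl (SD). Atp5g2 supplied 1.32% of that sum in MZ_KO, 3.05% in M_KO, 4.03% in het and 3.66% in WT_flfl, so the loss of Atp5g2 was small beside the summed RNA for the c subunit.

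Ndufb7, Ndufb10, Ndufab1, Ndufaf3 and Atp5g2 kept their calls in all 3 comparisons under every alternative run. Their promoters, from 250 bases before to 50 bases after the RefSeq start on GRCm38.p6, are shown because these members moved together. Capitals mark motif matches, and each sequence reads 5′ to 3′ on the strand of its gene. The windows are chr8:83566508-83566807 on the plus strand for Ndufb7, and, on the minus strand, chr17:24724374-24724673 for Ndufb10, chr7:122101799-122102098 for Ndufab1, chr9:108567387-108567686 for Ndufaf3 and chr15:102670998-102671297 for Atp5g2.
Ndufb7: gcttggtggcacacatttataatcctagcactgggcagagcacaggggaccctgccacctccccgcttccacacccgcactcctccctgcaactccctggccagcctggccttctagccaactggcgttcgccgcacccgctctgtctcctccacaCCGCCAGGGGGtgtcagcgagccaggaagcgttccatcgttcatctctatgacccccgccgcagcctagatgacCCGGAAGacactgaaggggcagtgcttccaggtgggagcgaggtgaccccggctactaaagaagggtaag
Ndufb10: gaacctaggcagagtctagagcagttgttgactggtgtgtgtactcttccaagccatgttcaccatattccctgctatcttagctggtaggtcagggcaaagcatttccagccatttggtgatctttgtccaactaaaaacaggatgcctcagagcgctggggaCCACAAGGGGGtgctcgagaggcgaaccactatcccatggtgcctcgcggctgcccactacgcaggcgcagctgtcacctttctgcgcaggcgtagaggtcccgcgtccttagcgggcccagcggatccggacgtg
Ndufab1: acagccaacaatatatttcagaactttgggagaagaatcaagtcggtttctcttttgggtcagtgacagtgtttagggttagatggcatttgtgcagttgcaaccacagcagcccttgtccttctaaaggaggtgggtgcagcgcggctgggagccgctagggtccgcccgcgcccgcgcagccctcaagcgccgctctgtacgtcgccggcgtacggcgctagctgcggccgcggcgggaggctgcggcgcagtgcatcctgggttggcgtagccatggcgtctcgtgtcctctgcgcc
Ndufaf3: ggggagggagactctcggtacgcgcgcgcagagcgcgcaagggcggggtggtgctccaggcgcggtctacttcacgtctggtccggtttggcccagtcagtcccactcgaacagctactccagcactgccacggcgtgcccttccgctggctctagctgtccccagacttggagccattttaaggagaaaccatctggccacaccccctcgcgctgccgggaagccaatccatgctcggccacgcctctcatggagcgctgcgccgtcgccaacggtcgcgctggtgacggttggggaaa
Atp5g2: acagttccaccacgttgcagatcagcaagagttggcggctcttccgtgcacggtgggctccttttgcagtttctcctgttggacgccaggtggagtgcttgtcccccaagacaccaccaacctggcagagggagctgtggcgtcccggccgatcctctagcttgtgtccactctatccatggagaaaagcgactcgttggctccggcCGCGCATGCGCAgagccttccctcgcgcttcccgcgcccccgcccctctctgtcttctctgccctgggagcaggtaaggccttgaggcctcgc

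The first capitals in the Ndufb7 promoter, 94 bases before the start, and the capitals in the Ndufb10 promoter, 86 bases before it, match a relaxed form of the core of the CTCF motif. That form was chosen after these sequences had been seen, so its count is a description only. It was found, on either strand, in 9% of all genes with a promoter in the table and in 8 of the 74 members with one. Of the 10 promoters available for the 13 members that fell, 5 held it, those of Ndufb7, Ndufb10, Ndufv1, Ndufaf4 and Uqcrc1. The stricter CTCF core consensus was in 0.636% of all genes and in 2 members, Ndufaf4 and Ndufv1. Its match starts 56 bases before the start of Ndufaf4 and 183 bases before the start of Ndufv1. The second capitals of Ndufb7 spell CCGGAAG, a form of the motif of ETS factors such as GABP, found on either strand in 9.93% of genes and 18 of the 74 members. Of the 10 promoters of members that fell, 2 held CCGGAAG, those of Ndufb7 and Sdhd. The capitals in the Atp5g2 promoter match the palindromic consensus of NRF1, the activator known for many respiratory genes, which was in 1.41% of genes and 7 members and reads on both strands. Of the 10 promoters of members that fell, 3 held the NRF1 consensus, those of Atp5g2, Sdhd and Uqcrc1. AAGATGGCG, a YY1 motif, was in 1.64% of genes and 8 members, with 0 of them among the members that fell. A match of letters is not a binding site, and no binding was measured in these data. Member promoters had a median GC content of 58.3% and 20 CpG, beside 52.7% and 7 for all promoters.

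**Figure D2:**
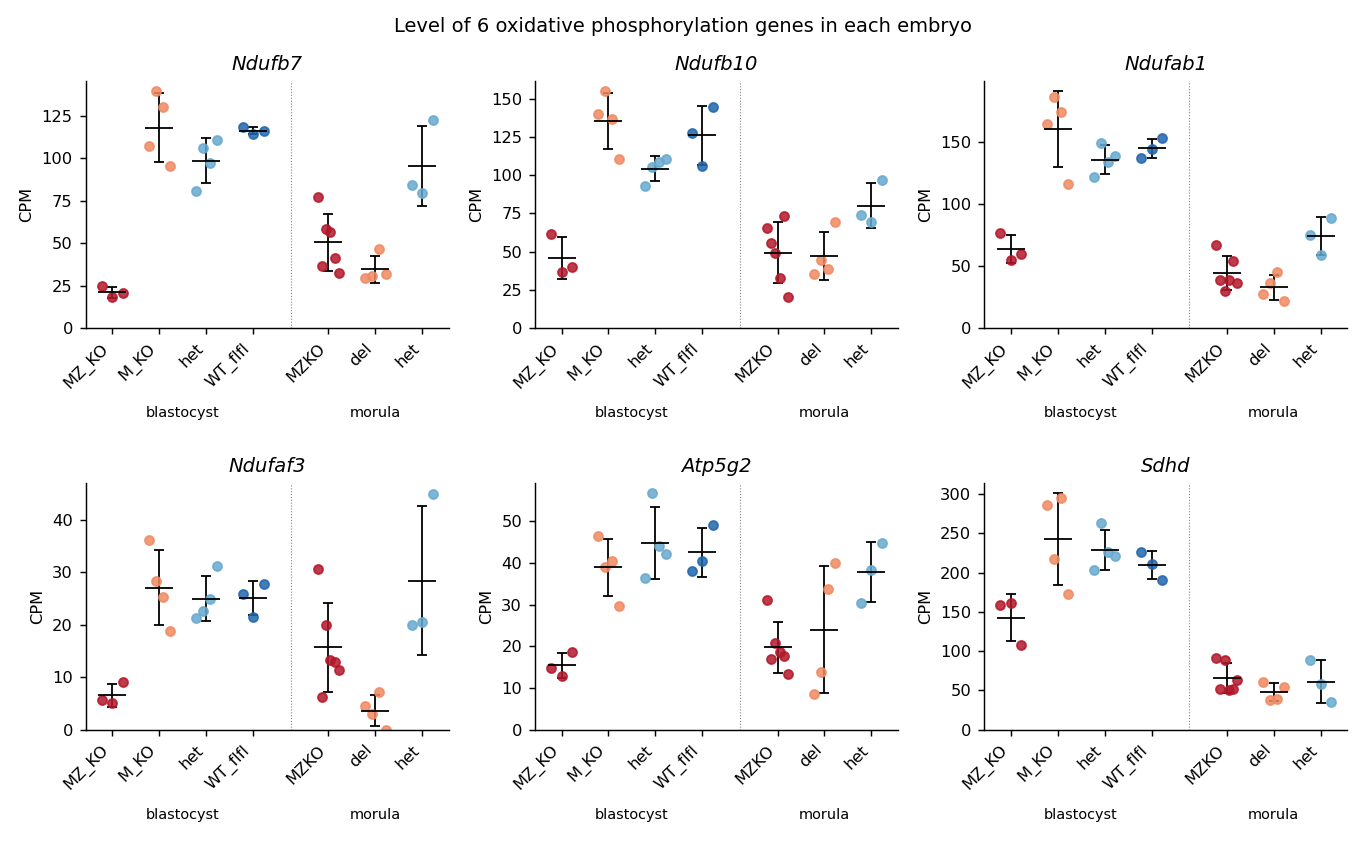
CPM (vertical axis, linear) of Ndufb7, Ndufb10, Ndufab1, Ndufaf3, Atp5g2 and Sdhd in every embryo, by group along the horizontal axis, blastocysts left and morulae right of the dotted line. Points are embryos, and black bars are the mean ± SD. MZ_KO embryos lie below every other blastocyst for all 6 genes, while among morulae groups overlap in part.

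Complex I also held smaller changes in both directions. Ndufs1 and Ndufv1 of its matrix arm, which carry iron-sulfur clusters and the flavin, were lower. Ndufs1 averaged 147 ± 12.4 CPM in MZ_KO, 210.5 ± 19.8 CPM in M_KO, 223 ± 35.5 CPM in het and 238 ± 39.5 CPM in WT_flfl (SD). It fell by 0.68 against WT_flfl (adjusted p = 0.0149), by 0.59 against het (adjusted p = 0.0182) and by 0.51 against M_KO (adjusted p = 0.0469) on the log2 scale. Without any 1 of the 7 embryos compared, the Ndufs1 call against M_KO was lost (adjusted p = 0.0514 to 0.155). The call against WT_flfl was lost without MZ_KO 2, WT_flfl 1 or WT_flfl 7 (adjusted p = 0.0572, 0.0693 and 0.0620) and that against het without MZ_KO 2, het 5 or het 6 (adjusted p = 0.0749, 0.0536 and 0.0572). Ndufs1 starts 8 bases from Eef1b2 on the other strand, and Eef1b2 stood at 344 CPM in MZ_KO and 261 CPM in WT_flfl (adjusted p = 0.169).

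Ndufv1, which binds NADH, averaged 193.5 ± 17.2 CPM in MZ_KO, 281 ± 28.5 CPM in M_KO, 230.5 ± 14.6 CPM in het and 261 ± 17.6 CPM in WT_flfl (SD). It fell by 0.53 against M_KO (adjusted p = 0.0136, and 0.0616 without MZ_KO 6) and by 0.43 against WT_flfl (adjusted p = 0.0488), a call that was lost without any 1 of the 6 embryos compared (adjusted p = 0.0594 to 0.154).

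Most members that rose were in complex I, which holds 37 of the 90 members. Of these 37, 2 rose against WT_flfl, 5 against het and 0 against M_KO, beside 4.84%, 7.02% and 3.74% of all genes. Ndufs8, an iron-sulfur subunit next to the ubiquinone site, had 322, 262 and 282 CPM in MZ_KO, against 262, 257, 265 and 205 CPM in M_KO, 181, 222, 173 and 219 CPM in het and 196, 191 and 165 CPM in WT_flfl. It lay above all het and WT_flfl embryos and overlapped with M_KO. Ndufs8 rose by 0.65 against WT_flfl (SE 0.16, adjusted p = 0.0128) and by 0.54 against het (SE 0.15, adjusted p = 0.0184), and changed by 0.23 against M_KO (adjusted p = 0.349). The Ndufs8 calls were lost without MZ_KO 2 (adjusted p = 0.0556 against WT_flfl and 0.0848 against het), without WT_flfl 9 (adjusted p = 0.0551) and without het 6 (adjusted p = 0.0573).

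Ndufb2, a small membrane arm subunit, had 127, 114 and 120.4 CPM in MZ_KO, against 86.9, 113, 77.4 and 67.3 CPM in M_KO, 68.5, 84.1, 76.0 and 80.5 CPM in het and 76.8, 82.5 and 71.0 CPM in WT_flfl. MZ_KO embryos lay above all others, though M_KO 3 came close. Ndufb2 rose by 0.65 against WT_flfl (adjusted p = 0.0364) and by 0.64 against het (adjusted p = 0.0230). The call against WT_flfl was lost without any 1 of the 6 embryos compared (adjusted p = 0.0622 to 0.105), and that against het without MZ_KO 2, MZ_KO 7, het 3 or het 6 (adjusted p = 0.0514 to 0.0770). Ndufb2 overlaps Braf, which stood at 31.1 CPM in MZ_KO and 11.8 CPM in WT_flfl (log2 fold change 1.42, adjusted p = 0.0446). The part of reads shared by Braf and Ndufb2 in this rise was not tested.

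Against het alone, Ndufs5, Ndufs7 and Ndufa12 of complex I also rose, together with Atp5mpl, a small ATP synthase protein, and Cox7a1. Ndufs5, another protein with twin cysteine motifs, averaged 222 ± 31.2 CPM in MZ_KO, 171 ± 36.9 CPM in M_KO, 133 ± 18.2 CPM in het and 151 ± 15.04 CPM in WT_flfl (SD). It rose by 0.73 against het (SE 0.18, adjusted p = 0.00901), a call that no alternative ended, and changed by 0.55 against WT_flfl (adjusted p = 0.0639) and 0.38 against M_KO (adjusted p = 0.175). Ndufa12 rose by 0.43 (adjusted p = 0.0374), Ndufs7 by 0.56 (adjusted p = 0.0478) and Atp5mpl by 0.57 (adjusted p = 0.0351) against het. Each of these 3 calls was lost without MZ_KO 2, MZ_KO 6, het 3 or het 6, at adjusted p values of 0.0764 to 0.134 for Ndufa12, 0.0870 to 0.216 for Ndufs7 and 0.0697 to 0.131 for Atp5mpl. Cox7a1, the form of this complex IV subunit known from heart and skeletal muscle, had 16.96, 17.13 and 14.19 CPM in MZ_KO, against 8.78, 15.2, 6.27 and 5.86 CPM in M_KO, 4.80, 6.28, 4.66 and 8.49 CPM in het and 8.81, 5.28 and 8.37 CPM in WT_flfl. M_KO 3 overlapped with MZ_KO. Only these embryos, MZ_KO and M_KO 3, reached 10 CPM. Cox7a1 thus entered the test through the group where it was high, and its call is a description only. Cox7a1 rose by 1.304 against het (SE 0.43, adjusted p = 0.0460). This call did not survive the omission of MZ_KO 2, 6 or 7 or of het 3, 5 or 6 (adjusted p = 0.0740 to 0.120).

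Complex II RNA was lower in sum in MZ_KO blastocysts. Its 4 genes together took 0.0800%, 0.0860% and 0.0732% of the reads in MZ_KO 2, 6 and 7, against 0.103% to 0.115% in M_KO, 0.0923% to 0.120% in het and 0.0935% to 0.112% in WT_flfl. No MZ_KO embryo reached another blastocyst. Sdhd, a membrane anchor of succinate dehydrogenase on chromosome 9 from 50596357 to 50603812 (minus strand), had 159, 161 and 108 CPM in MZ_KO, against 287, 217, 295 and 172 CPM in M_KO, 204, 263, 227 and 222 CPM in het and 226, 212 and 191 CPM in WT_flfl. Sdhd fell by 0.70 against het (SE 0.19, adjusted p = 0.0208) and by 0.75 against M_KO (SE 0.19, adjusted p = 0.0192), and its change of −0.57 against WT_flfl did not pass (adjusted p = 0.0781). The het call was lost without MZ_KO 7 or het 5 (adjusted p = 0.0988 and 0.0568) and the M_KO call without MZ_KO 7, M_KO 1 or M_KO 4 (adjusted p = 0.0908, 0.0611 and 0.0593). Timm8b, whose start lies 98 bases from that of Sdhd on the other strand, stood at 66.0 ± 9.76 CPM in MZ_KO and 63.4 ± 11.96 CPM in WT_flfl (SD, adjusted p = 0.881). Sdha, Sdhb and Sdhc did not pass the test in any comparison. In each of the 3 MZ_KO comparisons, 3 of the 4 genes were below 0 and 3 had an unadjusted p under 0.05 (limma). These were 75% of the list, beside 28.7% of all genes against WT_flfl, 31.9% against het and 26.5% against M_KO. Sdhc, the other anchor, had 90.31, 74.35 and 88.98 CPM in MZ_KO and 76.6, 74.2 and 65.5 CPM in WT_flfl.

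In complex III the core subunit Uqcrc1 was the 1 member of 9 called, a share of 11.1% that lies near the shares of all genes called in either direction, 13.2% against WT_flfl, 17.9% against het and 11.8% against M_KO. Uqcrc1, on chromosome 9 from 108936633 to 108949623 (plus strand), had 864, 690 and 664 CPM in MZ_KO, against 1133, 1138, 1192 and 1189 CPM in M_KO, 868, 1166, 924 and 1210 CPM in het and 1221, 1110 and 1115 CPM in WT_flfl. MZ_KO 2 nearly reached het 3, and no MZ_KO embryo overlapped with another group. It fell by 0.64 against WT_flfl (SE 0.14, adjusted p = 0.00700), by 0.49 against het (SE 0.13, adjusted p = 0.0175) and by 0.66 against M_KO (SE 0.13, adjusted p = 0.00419). The het call was lost without MZ_KO 6, MZ_KO 7 or het 5 (adjusted p = 0.0712, 0.0690 and 0.0514). The 9 members of complex III summed to 0.255% to 0.293% of reads in MZ_KO, against 0.321% to 0.353% in M_KO, 0.253% to 0.336% in het and 0.322% to 0.344% in WT_flfl, so MZ_KO overlapped with het only.

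Of 17 complex V members, Atp5g2 and Atp5a1 fell in all 3 comparisons, Atp5b fell against M_KO only and Atp5mpl rose against het only. These calls were 11.8% of the 17 against WT_flfl, 17.6% against het and 17.6% against M_KO. Of all genes 13.2%, 17.9% and 11.8% were called in either direction, so the shares against WT_flfl and het lie near those of all genes. Atp5a1, the alpha subunit of the catalytic head, had 1091, 1058 and 1366 CPM in MZ_KO, against 1683, 1460, 1661 and 1523 CPM in M_KO, 1481, 1813, 1775 and 1673 CPM in het and 1586, 1905 and 1656 CPM in WT_flfl. MZ_KO did not overlap with the other blastocysts. Atp5a1 fell by 0.55 against WT_flfl (SE 0.13, adjusted p = 0.00923, and 0.0537 without WT_flfl 7), by 0.53 against het (SE 0.12, adjusted p = 0.00658) and by 0.44 against M_KO (SE 0.12, adjusted p = 0.0263), the last lost without MZ_KO 2, MZ_KO 6, M_KO 1 or M_KO 4 (adjusted p = 0.0681 to 0.114). Atp5b, the catalytic beta subunit and the member with the highest level in both stages, averaged 2603 ± 292 CPM in MZ_KO, 3268 ± 174 CPM in M_KO, 2957 ± 224 CPM in het and 3247 ± 139 CPM in WT_flfl (SD). It fell by 0.33 against M_KO only (adjusted p = 0.0486), a call that was lost without any 1 of the 7 embryos compared (adjusted p = 0.0549 to 0.211). Atp5f1, the peripheral stalk subunit b, stood at 608 ± 52.9 CPM in MZ_KO and 643 ± 32.6 CPM in WT_flfl (SD) and did not pass the test in any comparison.

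Among the 11 assembly factors Ndufaf4 also fell, though not against WT_flfl. This complex I factor had 14.997, 17.77 and 5.86 CPM in MZ_KO, against 34.7, 22.5, 28.2 and 25.4 CPM in M_KO, 28.8, 22.8, 26.0 and 27.6 CPM in het and 13.8, 18.29 and 15.03 CPM in WT_flfl. The WT_flfl embryos were as low as MZ_KO and lay below every M_KO and het embryo. Ndufaf4 fell by 1.098 against het (SE 0.34, adjusted p = 0.0333) and by 1.16 against M_KO (SE 0.34, adjusted p = 0.0348). Both calls were lost without MZ_KO 7 (adjusted p = 0.151 each), the het call also without het 3, 6 or 8 (adjusted p = 0.0668, 0.0697 and 0.0593) and the M_KO call without M_KO 1, 4 or 5 (adjusted p = 0.0936, 0.0709 and 0.0558).

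In complex IV 0 of 12 members passed the test against WT_flfl (limma, 2 at an unadjusted p under 0.05) and 0 against M_KO (0 unadjusted), and against het Cox7a1 alone did. Cox7a1 had passed the level filter only with the MZ_KO embryos, where it was high. At an unadjusted p under 0.05 were 28.7% of all genes against WT_flfl and 26.5% against M_KO. Of all genes 13.2% were called in either direction against WT_flfl, 17.9% against het and 11.8% against M_KO, so in a list of 12 these counts say little about complex IV. Cox4i1, the form of subunit 4 present in most tissues, stood at 580 ± 92.7 CPM in MZ_KO, 609 ± 96.5 CPM in M_KO, 518 ± 78.0 CPM in het and 599 ± 38.3 CPM in WT_flfl (SD). Cox5b stood at 196 ± 5.37 CPM in MZ_KO and 237 ± 11.9 CPM in WT_flfl (SD) and Cox7a2l, a factor of supercomplexes, at 201 ± 64.2 CPM in MZ_KO and 135 ± 18.8 CPM in WT_flfl (SD, adjusted p = 0.0949). Cox6b2, known from testis, stayed below the level filter, at most 6.66 CPM in a blastocyst and 18.5 CPM in a morula (del 4). Cox4i2, Cox6a2, Cox7b2, Cox8b, Cox8c and Ndufa4l2 were not analysed here.

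**Figure D3:**
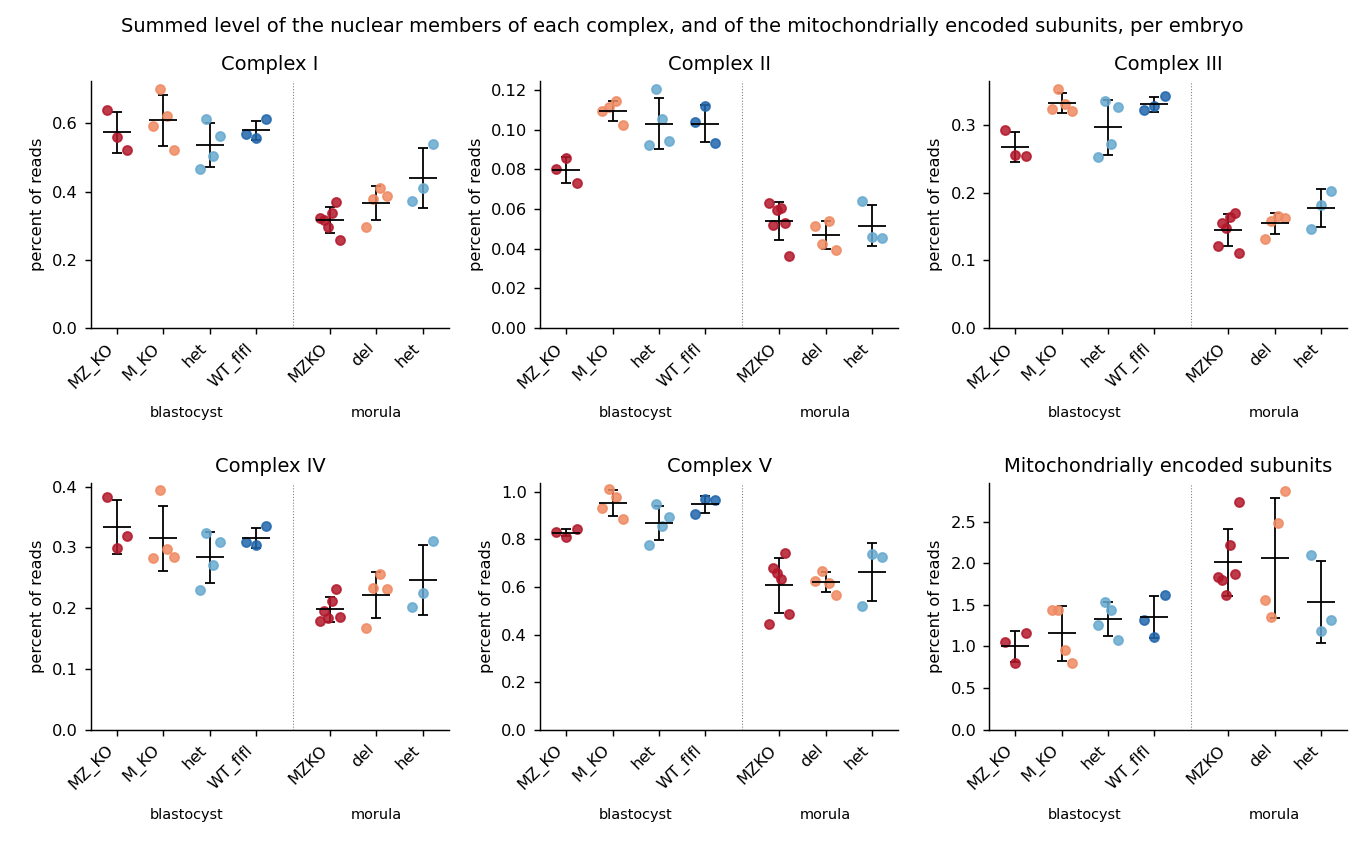
Summed level, in percent of reads (vertical axis, linear), of the members of complexes I to V and of the 13 mitochondrially encoded subunits in every embryo, by group. Points are embryos, black bars the mean ± SD, blastocysts left and morulae right of the dotted line. MZ_KO lies below every other blastocyst for complex II, while for complexes I and IV it overlaps with the other groups.

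Summed over all members, the groups overlapped. It was 2.27%, 2.05% and 2.04% of reads in MZ_KO, against 2.28%, 2.61%, 2.38% and 2.15% in M_KO, 1.85%, 2.38%, 2.04% and 2.23% in het and 2.25%, 2.31% and 2.39% in WT_flfl. MZ_KO 2 lay inside the ranges of M_KO, het and WT_flfl, and MZ_KO 6 and 7 inside that of het only. Complex I summed to 0.574 ± 0.0599% in MZ_KO and 0.580 ± 0.0288% in WT_flfl, complex IV to 0.333 ± 0.0440% in MZ_KO and 0.316 ± 0.0168% in WT_flfl, and complex V to 0.82925 ± 0.0153% in MZ_KO and 0.948 ± 0.0351% in WT_flfl (SD). Per kilobase of exon in WT_flfl blastocysts, Atp5b had the highest level at 766 CPM, then Cox6a1 at 581 and Atp5a1 at 547, and Ndufaf4 the lowest at 4.03.

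Other genes of the pathway were described from lists written with earlier results of these data known. Of all genes tested, 8.36% fell and 4.84% rose in MZ_KO against WT_flfl, and 10.8% fell against het. Of 13 mitochondrially encoded subunits, 3 fell in MZ_KO against WT_flfl and 0 rose, with a median log2 fold change of −0.184, and the sum was 0.800% to 1.16% of reads in MZ_KO, 0.799% to 1.44% in M_KO, 1.08% to 1.54% in het and 1.12% to 1.62% in WT_flfl. Against het 2 fell, with a median of −0.257. Against M_KO 0 were called (limma, 3 at an unadjusted p under 0.05, or 23.1%, beside 26.5% of all genes), with a median of 0.016. In M_KO against WT_flfl all 13 were below 0, with a median of −0.243 and 0 called. The genes that fell against WT_flfl were mt-Co1 and mt-Co3 of complex IV (−1.40 and −1.23, adjusted p = 0.0205 and 0.0341) and mt-Nd5 of complex I (−0.84, adjusted p = 0.0272). Of 41 assembly factors outside the name rule, 5 rose and 2 fell against WT_flfl, or 17.1% called in either direction, beside 13.2% of all genes. Tmem70, a factor for the ATP synthase c ring, stood at 249 ± 28.1 CPM in MZ_KO and 129 ± 13 CPM in WT_flfl (SD, log2 fold change 0.94, adjusted p = 0.00157). Atpaf2, a chaperone of the ATP synthase alpha subunit, stood at 139 ± 15.2 CPM in MZ_KO and 72.8 ± 7.57 CPM in WT_flfl (SD, 0.93, adjusted p = 0.00701). Cox19 rose by 0.94 (adjusted p = 0.0183), while Foxred1, a complex I factor, fell by 1.28 (adjusted p = 0.0371).

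Of 3 genes listed for the import of proteins with twin cysteine motifs 1 fell, a list too short to set beside the share of all genes. This was Chchd4, the oxidoreductase that folds such proteins in the intermembrane space. It stood at 60.3 ± 15.7 CPM in MZ_KO, 134 ± 25.7 CPM in M_KO, 133 ± 22.4 CPM in het and 134 ± 27.7 CPM in WT_flfl (SD), with a log2 fold change of −1.16 against WT_flfl (SE 0.24, adjusted p = 0.00439), −1.14 against het (SE 0.22, adjusted p = 0.00239) and −1.15 against M_KO (SE 0.22, adjusted p = 0.00320). Of 16 electron carriers and feeders 1 fell against WT_flfl, Dhodh (−0.83, adjusted p = 0.0359), a share of 6.25% beside 8.36% of all genes. Of 12 regulators 2 fell against WT_flfl (16.7%, beside 8.36% of all genes), Ctcf itself and the coactivator Ppargc1b. Ctcf is the gene the series is about, so its call says nothing about the other regulators. Ppargc1b stood at 7.37 ± 3.07 CPM in MZ_KO and 29.1 ± 7.72 CPM in WT_flfl (SD, log2 fold change −1.88, adjusted p = 0.00817). Nrf1, Gabpa, Esrra, Tfam and Yy1 did not pass the test.

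Some lineage markers also differed between MZ_KO and WT_flfl, where 8.36% of all genes fell and 4.84% rose. Of 7 trophectoderm markers tested, 3 fell in MZ_KO against WT_flfl and 0 rose, and the list summed to 0.377% to 0.505% of reads in MZ_KO, 0.551% to 0.930% in M_KO, 0.475% to 0.752% in het and 0.715% to 0.739% in WT_flfl. Of 7 primitive endoderm markers 3 fell, with sums of 0.0224% to 0.0320% in MZ_KO, 0.0328% to 0.0462% in M_KO, 0.0260% to 0.0879% in het and 0.0282% to 0.0459% in WT_flfl, and Gata4 and Lama1 were at 0 reads in at least 1 MZ_KO embryo. Among 7 markers of the epiblast and inner cell mass Nanog rose and Tdgf1 fell, with sums of 0.0899% to 0.114% in MZ_KO, 0.107% to 0.112% in M_KO, 0.0764% to 0.0949% in het and 0.0770% to 0.101% in WT_flfl. No trophectoderm marker was at 0 in MZ_KO, where Cdx2 was at 164 ± 64.3 CPM beside 251 ± 90.6 CPM in WT_flfl (SD). The part of lineage makeup in the changes of the members was not tested.

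The other blastocyst groups, among which differences in Ctcf did not pass the test (adjusted p = 0.937 for M_KO against WT_flfl, 0.999 for het against WT_flfl and 0.986 for M_KO against het), showed 0 members called. M_KO against WT_flfl gave 0 calls over all genes (0%), as did M_KO against het (0%) and het against WT_flfl (0%), with 2, 7 and 1 members at an unadjusted p under 0.05 (limma). These were 2.22%, 7.78% and 1.11% of the members, beside 5.15%, 6.66% and 1.95% of all genes. Voom weights on the recovered reads also gave 0 members in each. In het against WT_flfl 78 of 90 members were below 0, with a median of −0.136 beside −0.010 over all genes. In M_KO against het 81 of 90 were above 0, with a median of 0.152 beside 0.001. Both share the het embryos, of which het 3 and het 6, with summed levels of 1.85% and 2.04%, had 1.16% and 3.15% of their reads in blood genes. Leaving out 1 embryo at a time, the median of M_KO against het ran from 0.075 without M_KO 3, with 0.090 without het 3 and 0.134 without het 6, to 0.217 without M_KO 5. The part of blood RNA was not tested.

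In morulae none of the members was called in MZKO against het, and no test of the members as a group was run. The median log2 fold change was −0.335, beside −0.021 over all genes, and 77 of 89 members were below 0. Of all 9953 genes 0.482% were called (limma, 0 members called also with voom weights). At an unadjusted p under 0.05 were 13 members (14.6%), beside 8.66% of all genes. The median ranged from −0.485 without het 1 to −0.199 without het 7, so it rests on 3 het embryos that differed. Those 3 summed to 1.34%, 1.65% and 1.89% of reads over all members, against 1.12% to 1.61% in MZKO and 1.31% to 1.54% in del. The scaled libraries of het 1, 5 and 7 were 1.1018, 0.9512 and 0.9345 times their read totals, so scaling enters these percentages. Complex I led, with 35 of 37 members below 0 and a median of −0.417, and complex II had a median of 0.028. All 6 trophectoderm markers tested were also below 0, with 0 called and a list sum of 0.0365% to 0.118% of reads in MZKO, 0.0258% to 0.0790% in del and 0.0789% to 0.132% in het. Their part in the members' values was not tested. Del against het, which share a title prefix, leaned the same way and rests on the same het embryos. There 74 of 89 members were below 0, with a median of −0.187 beside −0.038 over all genes, and 33 of 37 in complex I. In MZKO against del 59 of 89 members were below 0, with a median of −0.090 beside 0.016.

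Ndufb8, a membrane arm subunit, had the smallest p of the members in MZKO against het morulae. It ranged from 68.3 to 135 CPM in MZKO (median 115), against 134 to 197 CPM in del and 179 to 276 CPM in het, with a log2 fold change of −0.995 against het (SE 0.28, unadjusted p = 0.00221, adjusted p = 0.171). Ndufa5 ranged from 30.5 to 46.6 CPM in MZKO (median 36.2), against 40.3 to 65.7 CPM in del and 50.7 to 130 CPM in het (−1.11, SE 0.34, adjusted p = 0.223). MZKO did not overlap with het for either gene, and neither passed the test. In blastocysts Ndufb8 and Ndufa5 did not separate the groups, with Ndufb8 at 369 ± 60.8 CPM in MZ_KO and 343 ± 40.2 CPM in WT_flfl and Ndufa5 at 92.3 ± 10.1 CPM in MZ_KO and 101 ± 13.96 CPM in WT_flfl (SD).

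The 5 genes with the deepest falls in MZ_KO blastocysts had lower means in MZKO than in het morulae, and none of them passed the test there. Ctcf itself missed the threshold in morulae (log2 fold change −3.23 for MZKO against het, adjusted p = 0.169). Ndufb7 had 77.2, 36.7, 58.5, 56.4, 41.5 and 32.6 CPM in MZKO and 29.4, 30.6, 46.6 and 31.9 CPM in del, against 84.6, 79.5 and 123 CPM in het. All MZKO and del embryos lay below all het embryos. The log2 fold change was −0.94 for MZKO against het (SE 0.34, adjusted p = 0.358) and −1.44 for del against het (SE 0.37, adjusted p = 0.572). Ndufab1 averaged 44.1 ± 13.7 CPM in MZKO and 32.8 ± 10.1 CPM in del, against 74.2 ± 15.2 CPM in het (SD), with MZKO 1 inside the het range. Over all genes MZKO 1 was the embryo furthest from the other MZKO morulae. Ndufb10 averaged 49.4 ± 19.8 CPM in MZKO, 47.0 ± 15.6 CPM in del and 80.1 ± 14.8 CPM in het (SD), and Atp5g2 averaged 19.8 ± 6.11 CPM in MZKO, 24.05 ± 15.2 CPM in del and 37.8 ± 7.12 CPM in het (SD).

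Ndufaf3 was lowest in del morulae, at 4.46, 2.98, 7.19 and 0 CPM, against 30.6, 6.21, 19.9, 13.3, 12.9 and 11.4 CPM in MZKO and 19.9, 20.4 and 44.8 CPM in het. Every del embryo was below every het embryo, while MZKO lay between and overlapped with both. Del against het gave −2.91 (SE 0.75, unadjusted p = 0.00107, adjusted p = 0.572) and MZKO against del 2.05 (SE 0.63, adjusted p = 0.332). In these comparisons 0 members were called, beside 0.01% of all genes for del against het and 0.181% for MZKO against del, with 3 and 5 members at an unadjusted p under 0.05 (limma, 0 also with voom weights). These were 3.37% and 5.62% of the members, beside 5.05% and 8.25% of all genes. The 0 of del 6 for Ndufaf3 rests on the lowest depth of the series. Other members that fell in blastocysts differed less in morulae. Sdhd stood at 66.2 ± 19.1 CPM in MZKO, 48.2 ± 11.3 CPM in del and 60.9 ± 27.3 CPM in het (SD). For MZKO against het, the log2 fold change was 0.17 for Sdhd, 0.10 for Atp5a1, −0.16 for Atp5b, −0.17 for Ndufs1, −0.35 for Uqcrc1, −0.43 for Ndufaf4 and −0.44 for Ndufv1, at adjusted p values of 0.712 to 0.953.

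**Figure D4:**
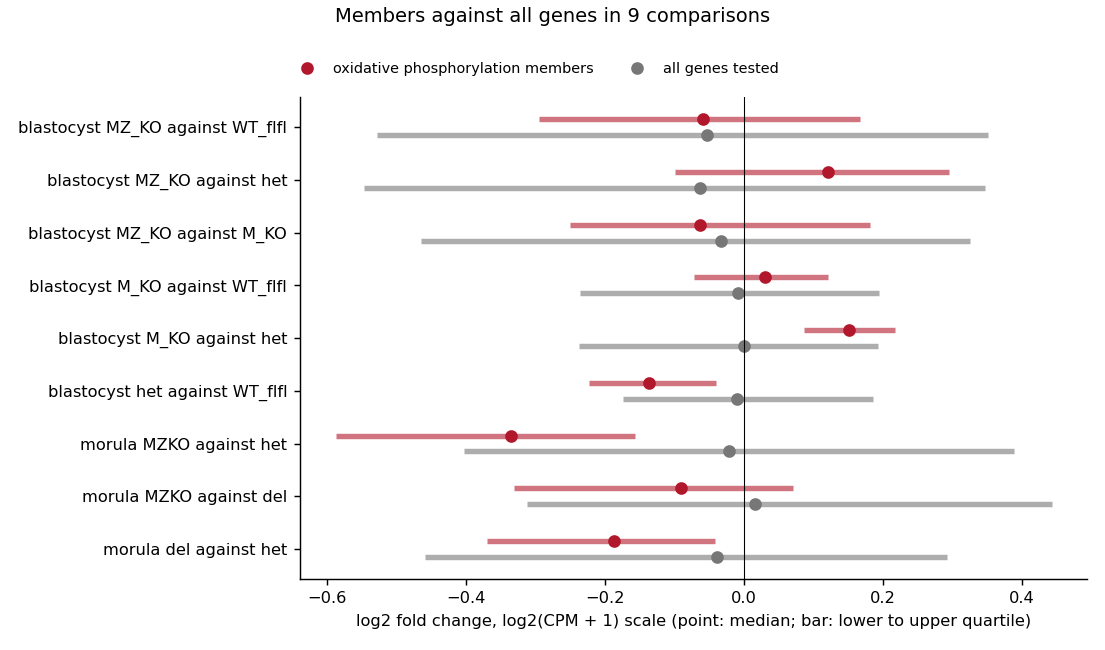
Median (point) and lower to upper quartile (bar) of the log2 fold change (horizontal axis, log2(CPM + 1) scale) of the members, in red, and of all genes tested, in grey, in 9 comparisons down the vertical axis. The members' median is −0.335 in morula MZKO against het, where that of all genes is −0.021, and lies near that of all genes in MZ_KO against WT_flfl and against M_KO.

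Whether the effect of MZ loss against het differed between the stages was tested gene by gene as the blastocyst effect minus the morula effect, each within its own table. None of the 89 members passed, beside 1.61% of the 8572 genes tested (limma). At an unadjusted p under 0.05 were 28 members (31.5%), beside 17.7% of all genes. The median difference was 0.461, beside 0.012 over all genes, and 68 of 89 members were above 0. Complex I had a median of 0.601 with 32 of 37 above 0, complex IV 0.699 with 11 of 11 above 0, and complex II −0.390. Ndufb8 came closest at 1.22 and Ndufs5 at 1.32 (SE 0.33 and 0.36, adjusted p = 0.0538 each), and Ndufb7 ran the other way at −1.23 (SE 0.37, adjusted p = 0.0784). The count depended on single embryos. It was 12, all above 0, without morula het 1, the het morula with the most blood RNA and the one furthest from its group. It was 2 without morula del 6, which is outside this contrast and enters only the estimate of the spread. The count was 0 to 1 without any other single embryo of the groups compared. It was 3 with voom weights. Stage and sequencing batch cannot be told apart here. The summed level of the members was 2.13 ± 0.227% of reads in het blastocysts and 1.63 ± 0.274% in het morulae (SD), a level set across tables that were scaled separately and not tested.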

How the data were processed

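RNA of single embryos was copied with the SMART-Seq Ultra Low Input kit and sequenced on an Illumina HiSeq 2500, per the labels' protocols. Cutadapt 1.14, Bowtie2 2.2.9 and RSEM 1.3.1 with the builds GRCm38 and mm10 are named in the submitters' processing notes, which give no role or order. For either stage the authors deposited log2 values, namely log2 of reads plus 0.5 per 1000000 reads of a scaled library. Undoing this gave CPM, and whole reads for 100% of values within 0.01 reads. The design had assumed normalized counts, so tests were run on log2(CPM + 1), which understates the change of weak genes. Of 28 samples described, 27 had a column, and a second library of blastocyst het 3 was not analysed here. There were 0 columns of other samples. The blastocyst table held 15582 genes (15575 matched to GENCODE M21) and 3 entries that name no mouse gene, which were left out. The morula table held 16745 genes (16731 matched).

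Genes that reached 10 CPM in no fewer than 3 embryos of 1 stage entered a limma fit (limma 3.58.1, R 4.3.3, trended moderated variance, all groups of a stage in 1 fit, two-sided). P-values were adjusted by the Benjamini-Hochberg method over all genes tested. A gene was called at an adjusted p under 0.05, whatever its fold. The fit was tested on simulated data first. The stage difference was fitted over all 27 embryos and the genes tested in both tables. Embryos of a group differed beyond counting error, the lowest chi-square over its degrees of freedom being 32.3. Morula het 1 (249.2 and 288.5) and MZKO 1 (233.4 to 269.3) differed most from their groups, where other morula pairs reached at most 123.5. These embryos also had the most genes detected, 16329 in het 1 and 16343 in MZKO 1. Promoters are from RefSeq, GRCm38.p6, and matched 74 of 90 members. Python 3.11.15 and matplotlib 3.10.9 drew the figures.

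The members, gene lists and comparisons were chosen with earlier results of these data known. Genes named are the marker genes Ndufb7, Ndufb10, Ndufab1 and Sdhd, every member called but 1 that is not reported here, alternative isoforms and the 5 members with the highest mean CPM of a stage, beside examples for a list. Morula members named for the smallest p were chosen after their values were seen. Classes follow gene names, so Ndufa4, now held to be a complex IV subunit, is counted in complex I.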

Additional observations from a re-analysis of the deposited data

Results flagged for a closer look

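The CPM of the 20 members called in blastocysts, and the summed level of each complex, were looked at in every group of 4 to 6 embryos for 1 embryo far from the others. Of 108 such groups 5 had one, and chance gives about 1 in 20. Morula del 4 had 46.6 CPM of Ndufb7, where the other del embryos had 29.4 to 31.9 CPM. Morula del 2 had 103 CPM of Ndufs5, where the others had 162 to 174 CPM. M_KO 5 had 205 CPM of Ndufs8, where the other M_KO embryos had 257 to 265 CPM. Blastocyst het 5 had 252 CPM of Ndufv1, where the other het embryos had 222 to 226 CPM. M_KO 3 had 0.395% of its reads in complex IV members, where the other M_KO embryos had 0.282% to 0.298%.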

How the results depend on the processing

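Of 719 values of the 43 calls of single members under other settings, 576 kept their side of the threshold, 143 no longer passed and 0 reversed. With only the compared groups in the fit, 11 members were called in MZ_KO against het and 7 against M_KO. Against het, 8 were called without WT_flfl 1 and het 6 together, the blastocysts with the most blood RNA. In the stage difference 2 were called with a pseudocount of 5, 2 with plain read totals, 3 with median-of-ratios scaling, 1 with a library size without mitochondrially encoded genes, 3 with voom weights, 2 without morula del 6, and 12 without morula het 1 and MZKO 1 together, a choice made after seeing the data. Leaving out 1 embryo at a time gave 7 to 12 members in MZ_KO against WT_flfl, 9 to 17 against het, 8 to 13 against M_KO and 0 to 12 in the stage difference. The other 6 comparisons stayed at 0 throughout. With the replicate block, M_KO against het and morula MZKO against del gave 0 calls each. Embryos with the same number did not deviate together (correlations of −0.120 to 0.140 over 4 numbers for MZKO and del, and −0.144 and −0.120 for M_KO and het), so the block pairs numbers only. The cause of these differences was not tested. Groups of 3 embryos limit what can be called, and morula del 6 rests on 1635553 reads. Reads that RSEM could split between near-identical copies make small family members with pseudogenes uncertain.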

Other observations

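The name rule leaves out Ndufb1-ps, annotated as a non-coding RNA, and Ndufb4c, a processed pseudogene, both of which were in the tables. Ndufb1-ps stood at 38.7 ± 3.85 CPM in MZ_KO and 43.3 ± 9.80 CPM in WT_flfl blastocysts (SD, n = 3 each, limma adjusted p = 0.761). Ndufb4c stood at 37.6 ± 5.24 CPM in MZ_KO and 38.2 ± 3.805 CPM in WT_flfl blastocysts (SD, n = 3 each, limma adjusted p = 0.955).

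Among the mitochondrially encoded partners of complex I, mt-Nd3 stood apart in morulae. All MZKO morulae carry another title prefix than del and het, so genotype and prefix cannot be told apart for this gene. The level of mt-Nd3 ranged from 113 to 308 CPM in MZKO (n = 6), against 6.74 to 29.6 CPM in del (n = 4) and 9.68 to 13.1 CPM in het (n = 3). The log2 fold change was 3.62 against del (SE 0.39, limma adjusted p = 3.56e-05) and 4.02 against het (SE 0.43, limma adjusted p = 3.97e-05), and the other 12 mitochondrially encoded subunits were not called in either comparison. In blastocysts mt-Nd3 was at 97.1 ± 26.8 CPM in MZ_KO and 90.1 ± 22.9 CPM in WT_flfl (SD, n = 3 each).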
